A study of Rattus norvegicus with 22 samples.

Results

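The central myelin genes described here are Mbp, Mog, Mag, Mobp, Cnp, Opalin, Cldn11, Ugt8 and Myrf. They were taken from the table of read counts by symbol, and all 9 were found, among 32883 genes. Central myelin is the membrane that oligodendrocytes wrap around axons of the brain and spinal cord. It is held compact by adhesive proteins, is rich in galactolipids, and is built under a transcriptional programme that also maintains it in the adult. Gonadal steroids are among the hormones to which cells of this lineage can respond.

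The study asked how removal of the gonads changes transcription in the ventral part of the rat cervical spinal cord, where motor neurons of the arm and diaphragm lie beside myelinated tracts. RNA from 22 adult Sprague-Dawley rats was sequenced: 5 intact males, 5 males with both testes removed (GDX), 6 intact females and 6 females with both ovaries removed (OVX). Intact rats were matched in age to the operated rats, a sham operation was not stated, tissue of operated rats was taken some weeks after surgery, and all rats were perfused with cold saline. Each library is a separate rat.

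Total counts ran from 12371756 to 17571887 per rat. The 9 genes together took 1.55% to 1.84% of the counts of a library, and Mbp alone took 1.11% to 1.38%. Even the least counted member, Opalin, had at least 1618 reads in every rat. Values are given in CPM, the reads of a gene scaled to a common library size with factors from the trimmed mean of M-values (TMM). Levels are not compared between genes because transcript lengths were not used here.

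Libraries fell in 2 classes of average fragment size. All GDX and all OVX libraries were of the shorter class, and the longer class held 3 intact males and 4 intact females, so class and surgery cannot be fully told apart. Among intact rats, with sex in the model, 0 of the 9 genes were called between the classes in edgeR's quasi-likelihood test (adjusted p under 0.1). Of all genes, 0.00669% were called in that comparison, and 1151 of 14937 had an unadjusted p under 0.05. With DESeq2 53 genes were called and again 0 of the 9. The smallest p among the members was that of Opalin, with a log2 difference of -0.11 (SE 0.05, adjusted p = 0.654 by edgeR). That model takes 1 class difference for both sexes. Ugt8 had means of 365.1 (shorter) and 411.8 CPM (longer) in intact males, but 390.1 and 349.6 CPM in intact females. Mbp had 11340 and 11880 CPM in males, but 12930 and 11750 CPM in females. Opalin was lower in the longer class in both sexes. Class differences within each sex were not tested.

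Mbp encodes myelin basic protein, which binds the inner faces of the membrane and compacts it. In intact males it stood at 11330, 10710, 12870, 11970 and 11430 CPM in rats 1, 2, 3, 5 and 6. In GDX males it stood at 12370, 12540, 13360, 14270 and 12900 CPM in rats 1, 2, 4, 5 and 6. All GDX values lay above 4 of the intact values, and the groups overlapped through intact male 3. In intact females Mbp ran from 11160 to 13800 CPM (median 11930), and in OVX females from 10890 to 13250 CPM (median 12580). The female groups overlapped almost completely. The order of the group means was intact males, intact females, OVX females and GDX males, and each neighbour in that order differed from the next by less than 1 SD.

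Cnp encodes an enzyme of the cytoplasmic channels of myelin. In intact males it stood at 1075, 1030, 1101, 1091 and 1068 CPM in rats 1, 2, 3, 5 and 6. In GDX males it stood at 1181, 1117, 1107, 1254 and 1139 CPM in rats 1, 2, 4, 5 and 6. The male groups did not overlap, although the lowest GDX value lay only slightly above the highest intact value. Cnp was the single member whose groups did not overlap in the comparisons made here. The share of all genes whose groups did not overlap is not given here. The separation of Cnp is therefore a description and not a result about the members. In intact females it ran from 1052 to 1141 CPM (median 1087) and in OVX females from 1070 to 1201 CPM (median 1164), with overlap.

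Mog, an immunoglobulin-like protein of the outermost lamella, ran from 171 to 195 CPM over all rats, a ratio of 1.14 between highest and lowest. Mag, a sialic acid-binding protein on the membrane next to the axon, ran from 588.4 to 742.6 CPM. Both extremes of Mag fell in groups that overlapped all the others. Mobp, a small basic protein of compact myelin, ran from 1259 to 1629 CPM, a ratio of 1.29. Its mean was lowest in GDX males, at 1397 ± 83.1 CPM (SD, n = 5), and highest in intact females, at 1499 ± 79.9 CPM (SD, n = 6). Those ranges overlapped. Opalin, a membrane glycoprotein of oligodendrocytes, ran from 129.6 to 169.6 CPM, and Cldn11, the claudin of the tight junctions in myelin, from 226.4 to 276.9 CPM. Neither separated any pair of groups.

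Ugt8 makes galactosylceramide, the main galactolipid of myelin. It had the widest range of the 9, from 315.7 CPM in an intact female to 465.8 CPM in a GDX male, a ratio of 1.48. Intact females had the lowest mean, 363.1 ± 31.9 CPM (SD, n = 6). OVX females stood at 392.1 ± 17.7 CPM (SD, n = 6), and intact males stood level with them at 393.1 ± 34.4 CPM (SD, n = 5). The highest mean was that of GDX males, 425.8 ± 30.8 CPM (SD, n = 5). Neighbours in this order overlapped. Myrf encodes the transcription factor that oligodendrocytes need to make and keep myelin, and it ran from 280.5 to 376.7 CPM. Its group means lay between 333.2 and 343 CPM, closer together than the rats within each group.

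**Figure D1:**
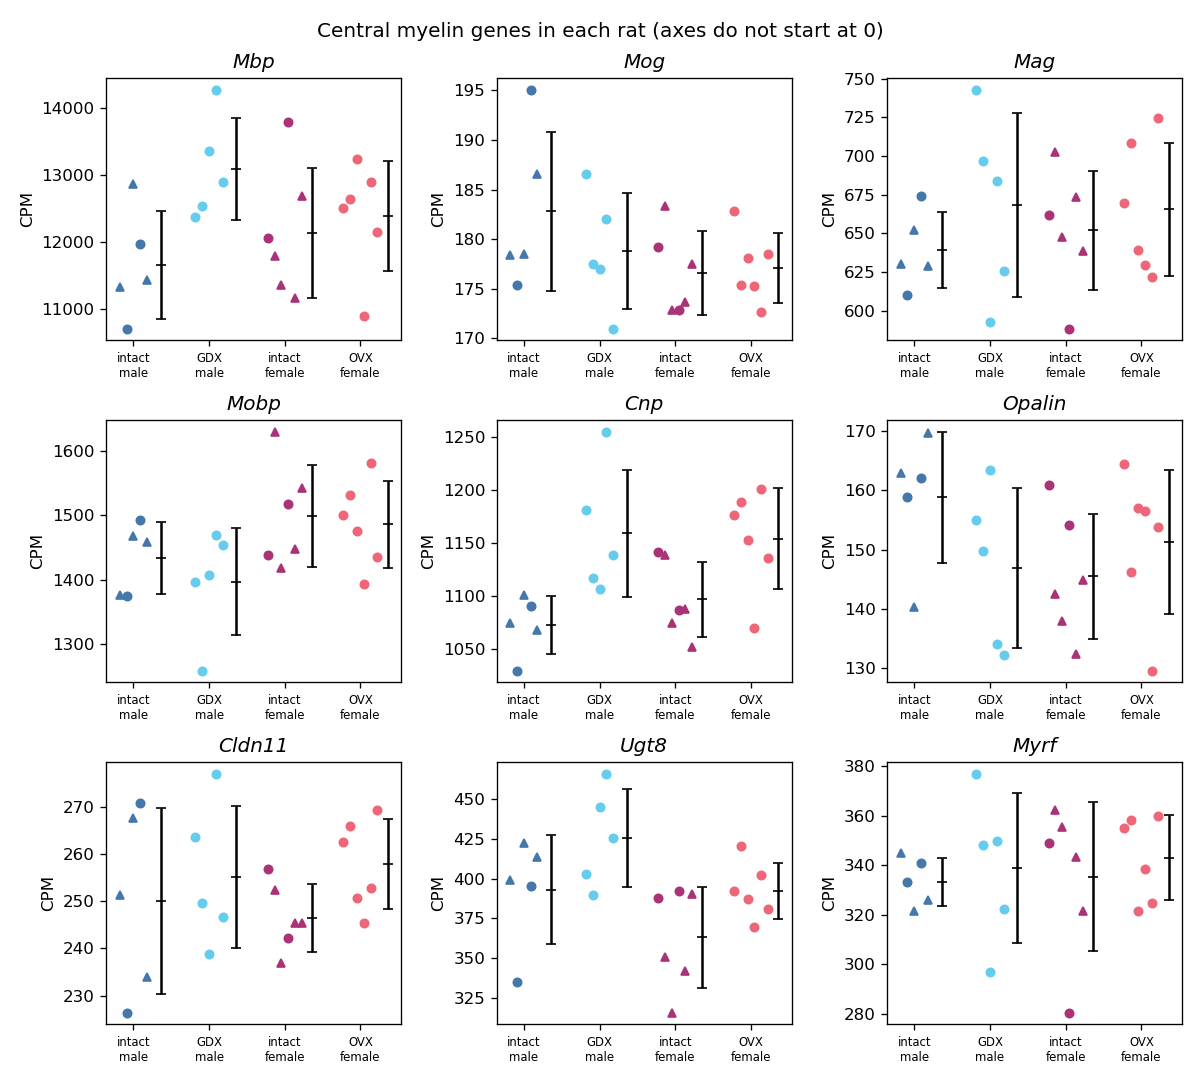
CPM of each central myelin gene (vertical axes, not starting at 0) in the 4 groups (horizontal axes). Circles are rats of the shorter and triangles of the longer fragment class, and black bars are the group mean ± SD (5 males or 6 females a group). Mbp in GDX males reaches 14270 CPM and overlaps intact males through 1 rat, whereas Cnp in GDX males lies wholly above intact males.

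Removal of the testes was followed by a higher level of 1 of the 9 genes. Mbp rose 1.12-fold, a log2 fold change of 0.17 (SE 0.05, 95% interval 0.05 to 0.28, adjusted p = 0.067 by edgeR). Among all genes 13.4% were called in this comparison, 6.78% as higher and 6.58% as lower, so 1 of 9 is near the background. Cnp had a log2 difference of 0.11 (SE 0.04, adjusted p = 0.133) and Ugt8 one of 0.12 (SE 0.06, adjusted p = 0.301). DESeq2 called 2 of the 9, Mbp and Cnp, among 2084 genes, and edgeR with all 22 rats in 1 fit called the same 2 among 2395, beside 1995 here. Opalin had the lowest value, -0.11 (SE 0.06, adjusted p = 0.319). Of the 9 estimates 6 were above 0 and 3 below, with a median of 0.03, beside 0.00 for all genes tested. In bulk tissue fewer cells of a type and less RNA per cell cannot be told apart.

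The Mbp call was narrow. It was lost when intact male 1 (adjusted p = 0.141), 2 (0.162) or 6 (0.127) was left out, and when GDX male 4 (0.123), 5 (0.167) or 6 (0.101) was left out, with log2 fold changes of 0.13 to 0.17. Within the shorter fragment class, which leaves 2 intact males, the log2 fold change was 0.21 and the adjusted p 0.148. Both of those intact males lay below every GDX male. That class leaves out the intact male at 12870 CPM, which lay within the range of GDX males. The share of all genes that separate in this subset is not given here, so this separation is only a description. With RNA integrity or fragment class as a term the log2 fold change was 0.17 and 0.21 (adjusted p = 0.142 and 0.138). Without scaling factors the log2 fold change was 0.13 and the adjusted p 0.149, and the median of the 9 was -0.01 beside -0.04 for all genes, a shift that all genes shared.

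Markers of other tissue moved in the same comparison. Genes of meninges and fibroblasts were higher in GDX males for 7 of the 7 tested, with Slc6a13 at a log2 fold change of 1.57 and Col3a1 at 1.73 (adjusted p = 0.00554 and 0.00607). Their summed level was 64.62 to 186.5 CPM in intact males and 166.1 to 531.7 CPM in GDX males, and their most abundant gene was Col1a1. Endothelial genes were higher for 5 of 5. The smallest p values were those of Cdh5 at 1.23 and Slco1a4 at 0.45 (adjusted p = 0.00136 and 0.0082 by edgeR). Among genes of Schwann cells, which make the myelin of the nerve roots and also use Mbp, 2 of 6 tested were higher, among them Prx at 1.07 (adjusted p = 0.0955), which turned to -0.47 with the meninges list as a term. Their most abundant gene was Pmp22, with a mean of 67.8 CPM in intact males and 75.5 CPM in GDX males, and Egr2 was at 0 in 2 of the libraries. The summed level of the list was 109.7 to 166.5 CPM in intact males and 125.5 to 206.7 CPM in GDX males. With the mean level of the Schwann cell list as a term, Mbp had a log2 fold change of 0.10 (adjusted p = 0.442), and with that of the meninges list 0.07 (adjusted p = 0.908). Those terms were chosen after seeing the data, they vary with the groups, and their part in the result was not tested.

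Neuronal markers moved the other way. Of 7 neuronal genes 3 were lower in GDX males, Rbfox3 at -0.33, Snap25 at -0.20 and Nefh at -0.29 (adjusted p = 0.024, 0.037 and 0.0825), and of 6 motor neuron genes Slc18a3 was lower at -0.43 (adjusted p = 0.0542). Among intact rats 6 of 6 motor neuron genes were higher in the longer class, with a median of 0.40 and Slc18a3 at 0.38 (adjusted p = 0.363). So were 6 of 7 neuronal genes, among them Nefh at 0.30 but Rbfox3 at 0.04 and Snap25 at 0.02. The other, Syt1, was lower in the longer class, at -0.47 (adjusted p = 0.288 by edgeR). The median of the 7 was 0.18, and 0 of either list were called. All GDX libraries were of the shorter class. With class as a term the value in GDX males was -0.18 for Slc18a3, and it stayed at -0.30 for Rbfox3 and -0.20 for Snap25, with 0 of the 3 called. For Slc18a3, Nefh, Rbfox3 and Snap25 alike surgery and class cannot be told apart, and Nefh was not tested with class as a term. Of 8 astrocyte genes Gfap (0.38) and Aqp4 (0.18) were higher. Of 8 microglial genes 0 were called by edgeR, and P2ry12 had the smallest p (log2 difference 0.36, adjusted p = 0.106). Yet 8 of 8 microglial estimates were above 0, with a median of 0.15 beside 0.00 for all genes, while 7 of 8 were lower in the longer class among intact rats (median -0.06). The part of these cells in the Mbp result was not tested.

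Of all genes 6.78% were called as higher in GDX males and 6.58% as lower, and the lineage lists are set beside that. Of 19 other myelin genes 2 were higher in GDX males, Ermn, which encodes a cytoskeletal protein of oligodendrocytes, at a log2 fold change of 0.24, and Cd9, a tetraspanin, at 0.21 (adjusted p = 0.0133 and 0.0326). Their median was 0.03. Of 15 genes for myelin lipids 3 were higher, led by the fatty acid desaturases Scd at 0.29 and Scd2 at 0.19 (adjusted p = 0.0082 and 0.0138). Of 10 transcription factors of the lineage 1 was lower, Olig1 at -0.27 (adjusted p = 0.0134). Of 11 genes of precursors and newly formed cells 2 were higher, Pdgfra at 0.23 and Bmp4 at 0.22 (adjusted p = 0.0586 and 0.0611). Both calls were lost with fragment class or RNA integrity as a term, and with the meninges list as a term Pdgfra was at 0.00 and 0 of the 7 genes named here were called. The medians of these lists were 0.06, 0.00 and 0.03.

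**Figure D2:**
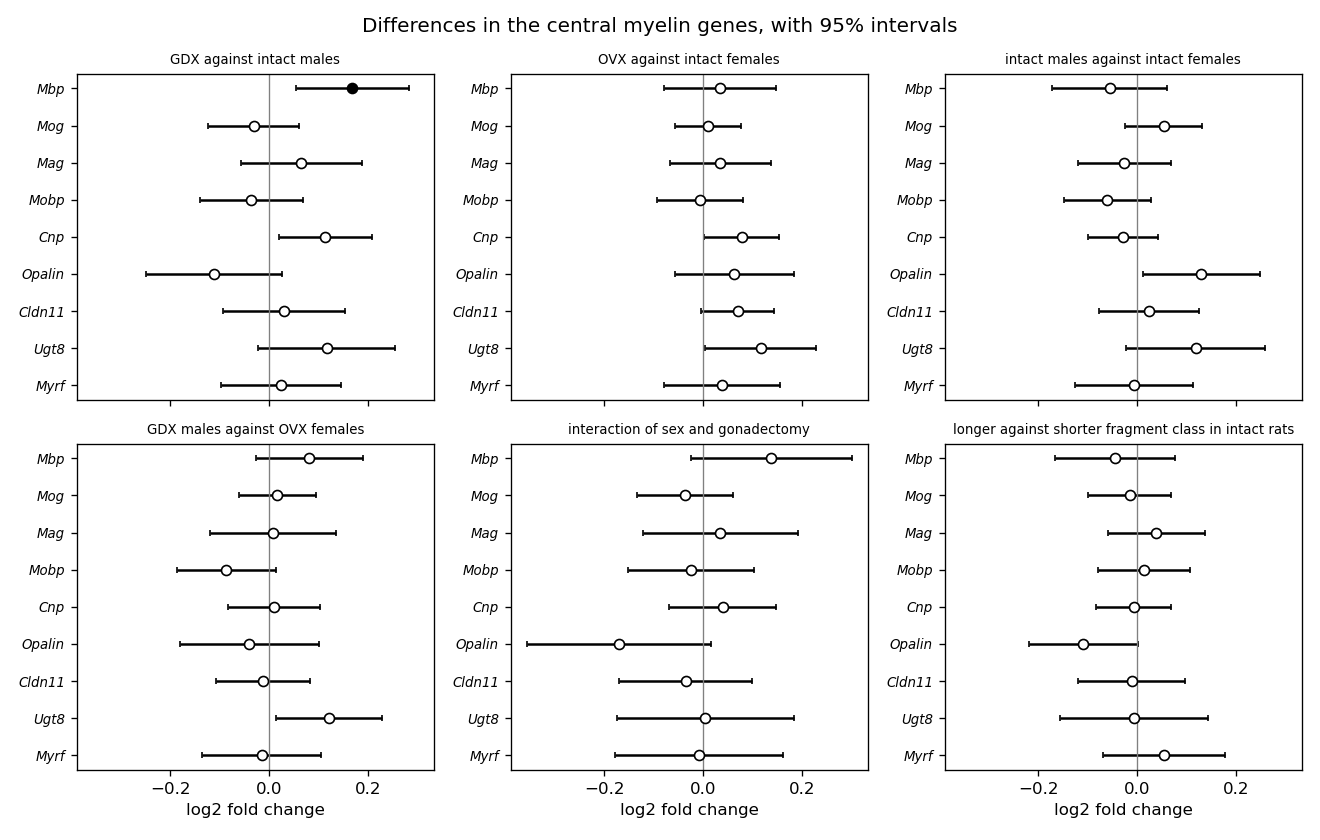
Log2 fold change (horizontal axes) of each central myelin gene (vertical axes) in the 6 comparisons, with 95% intervals from edgeR. Filled points are genes called at an adjusted p under 0.1. Only Mbp in GDX against intact males, at 0.17, is filled.

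Removal of the ovaries was followed by no called change in the 9 genes. By edgeR 0 of 9 passed, where 0.0335% of all genes did and 1516 of 14910 had an unadjusted p under 0.05. DESeq2 called 164 genes and also 0 of the 9. The smallest p values were those of Ugt8, with a log2 difference of 0.12 (SE 0.05, 95% interval 0.00 to 0.23, adjusted p = 0.475), and Cnp, with 0.08 (SE 0.04, adjusted p = 0.477). The median of the 9 was 0.04 and 8 of the estimates were above 0. All OVX libraries were of the shorter class. Within that class, which leaves 2 intact females, the median was 0.0083. Ugt8 had a mean of 390.1 CPM in those 2 and 349.6 CPM in the 4 of the longer class, beside 392.1 CPM in OVX females. For Cnp these means were 1114, 1088 and 1154 CPM. Surgery and class cannot be told apart in this comparison. Of the other lists Kdr of endothelium was called (0.77, adjusted p = 0.0966), a call lost in 11 of 25 alternatives. Within each lineage list the gene of smallest p was Tmem88b of the other myelin genes (0.11, adjusted p = 0.436), Hmgcs1 of the lipid genes (0.19, adjusted p = 0.149), Sox10 of the transcription factors (0.11, adjusted p = 0.477) and Gpr17 of the newly formed cells (0.33, adjusted p = 0.211). Outside the lineage Slc1a3 of astrocytes (0.17) and Slc18a3 of motor neurons (-0.54) each had an adjusted p of 0.149. Estimates were below 0 for 6 of 6 motor neuron genes and 6 of 7 neuronal genes, with medians of -0.38 and -0.20 and 0 called. Among intact rats 6 of 6 and 6 of 7 genes of these lists were higher in the longer class, with medians of 0.40 and 0.18. For these lists too surgery and class cannot be told apart. Other lists leaned upward as the members did, with 14 of 15 lipid genes (median 0.10), 8 of 8 microglial (0.10), 7 of 7 meningeal (0.26) and 5 of 5 endothelial genes (0.49) above 0.

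Whether the response differed between the sexes was tested by the interaction. By edgeR 0 of 9 genes were called, where 0.116% of all genes were and 1810 of 15562 had an unadjusted p under 0.05. DESeq2 called 234 genes and 0 of the 9. Opalin had an interaction of -0.17 on the log2 scale (SE 0.09, 95% interval -0.36 to 0.02, adjusted p = 0.472), and Mbp one of 0.14 (SE 0.08, 95% interval -0.02 to 0.30, adjusted p = 0.508). The Mbp call in males is thus not shown to differ from the value of 0.03 in females. Of the lineage lists 0 genes were called, and the smallest p values were those of Ermn (0.19, adjusted p = 0.23), Scd2 (0.15, adjusted p = 0.2), Olig1 (-0.18, adjusted p = 0.363) and Gpr17 (-0.34, adjusted p = 0.224).

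Between intact males and intact females 0 of the 9 genes were called by edgeR. Of all genes 4.01% were called, 1.45% as higher in males and 2.56% as lower, 2317 of 14937 had an unadjusted p under 0.05, and DESeq2 called 0 of the 9 among 820 genes. Opalin had the smallest p, with a log2 difference of 0.13 towards males (SE 0.06, adjusted p = 0.276). Among the other lists Omg, a myelin glycoprotein gene (0.20, adjusted p = 0.0272), St18 (0.16, adjusted p = 0.0961) and Gpr17 (0.40, adjusted p = 0.0343) were higher in males. Of 6 Schwann cell genes 4 were lower in males, among them Pmp22 (-0.37, adjusted p = 0.0211). So were 5 of 7 meningeal genes, with the smallest p for Slc6a13 (-1.34, adjusted p = 0.00454). Cdh5 of endothelium was lower as well (-1.13, adjusted p = 0.00181), and Snap25 of neurons was higher (0.14, adjusted p = 0.0459). These comparisons share the intact males with that of GDX males. Of the 4 groups intact males had the lowest mean of the summed Schwann cell genes and of the summed meningeal genes. The meningeal sum was 118.8 ± 47.2 CPM (SD, n = 5) there, beside 290 ± 128 CPM in intact females (SD, n = 6).

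Between GDX males and OVX females 0 of the 9 genes were called by edgeR as well. Of all genes 0.232% were called, 1413 of 15084 had an unadjusted p under 0.05, and DESeq2 called 0 of the 9 among 130 genes. Ugt8 had a log2 difference of 0.12 towards GDX males (SE 0.05, adjusted p = 0.458). Of the lineage lists 0 genes were called. The gene of smallest p was St18 among the transcription factors (0.21, adjusted p = 0.197) and Ermn among the other myelin genes (0.16, adjusted p = 0.319).

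The 9 genes did not vary as a block from rat to rat. With group means subtracted, Pearson's r over 22 rats had a median of 0.37 across the 36 pairs, and 12 pairs were negative. Mag and Myrf went together most closely (r = 0.854), followed by Mbp and Ugt8 (r = 0.768) and by Cnp and Cldn11 (r = 0.713). Mbp and Myrf went in opposite directions (r = -0.529). All values of a rat share a library and its scaling factor, and the r values are a description. The within-group SD on the log2 scale was 0.04 for Mog, where 5.98% of the 1573 other genes of at least 100 CPM had a smaller SD, and 0.12 for Opalin, where 87.5% did.

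**Figure D3:**
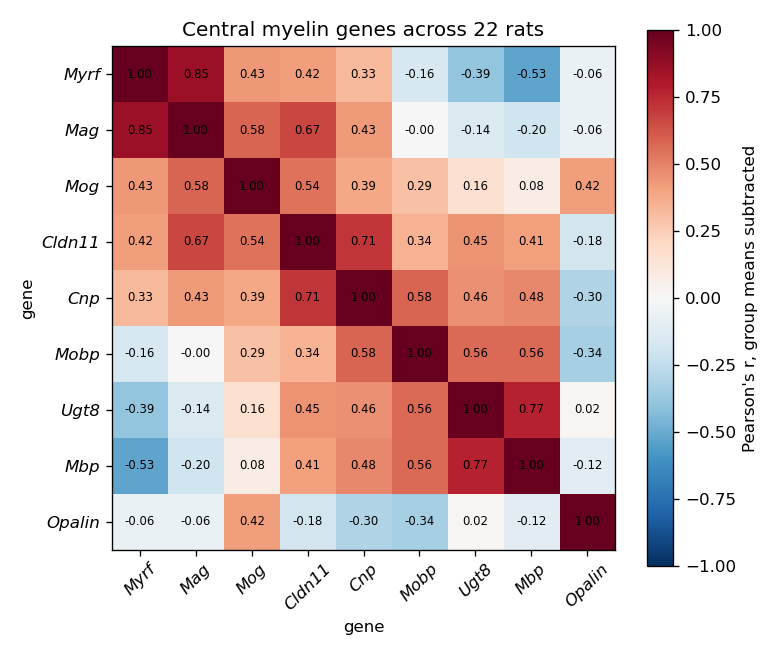
Pearson's r between the log2 CPM of each pair of central myelin genes (both axes) over 22 rats after group means were subtracted, from -1 (blue) to 1 (red). Mag and Myrf stand at 0.85 and Mbp and Myrf at -0.53.

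For 4 of the 9 members the share of counts taken by the most abundant gene ran along these pairs, as did the scaling factor. That gene, listed as AY172581.24, was the same in every library and took 12.3% to 17.9% of the counts. With group means subtracted, r of its log2 share was 0.593 with Mbp and 0.494 with Ugt8, and -0.739 with Myrf and -0.578 with Mag (22 rats). Spearman's rho was 0.577, 0.518, -0.714 and -0.539 in the same order. Without the 2 rats whose share, less the group mean, lay farthest from the median r was 0.441, 0.513, -0.651 and -0.49. With all 22 rats r for the other 5 members ran from -0.204 to 0.33, and for the mean of the 9 it was -0.037. For the TMM factor and the 4 members r was -0.599, -0.466, 0.749 and 0.7, and rho -0.551, -0.458, 0.747 and 0.722. The origin of these values was not tested. The share was 14.2% ± 0.924 (SD, n = 5) in intact males and 15.6% ± 1.89 (SD, n = 5) in GDX males. With that share as a term, chosen after seeing the data, the log2 fold change of Mbp in GDX males was 0.12 (adjusted p = 0.176). Its part in the Mbp result was not tested.

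**Figure D4:**
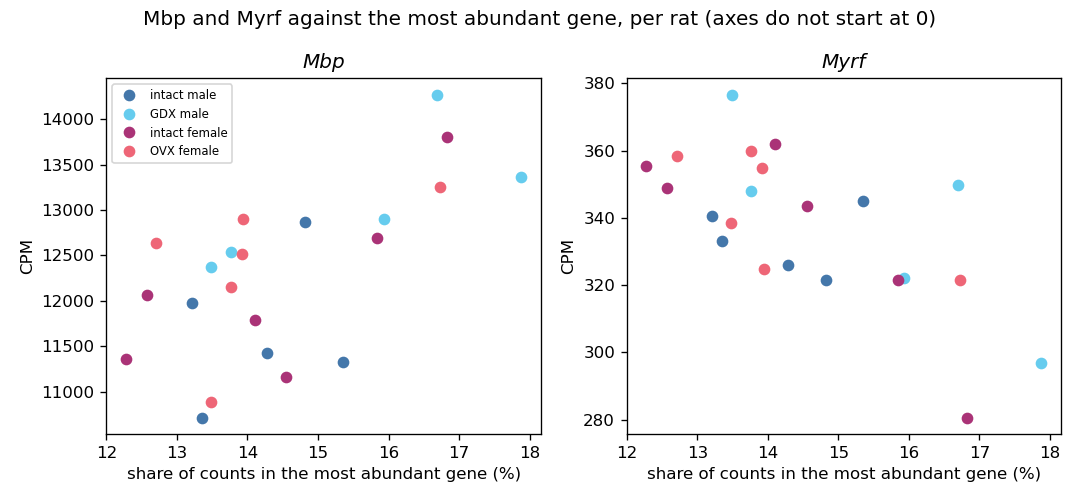
CPM of Mbp and Myrf (vertical axes, not starting at 0) against the share of counts in the most abundant gene (horizontal axes, percent), 1 point a rat, coloured by group. Mbp is higher and Myrf lower in rats with a larger share.

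The RefSeq promoter table (build GRCr8) was searched on both strands for CTGGNAC, letters close to the motif known for Myrf. The letters were chosen with the sequences in view. The table matched 7 of the 9 members with 8 entries of 300 bases each, and 5 of the 8 entries held the letters, those of Mag, Cnp, Opalin, Cldn11 and 1 of 2 of Mbp, beside 18.2% of all 33469 promoters. ACAAAG, letters of the kind bound by Sox factors and likewise chosen with the sequences in view, was found in 5 of the 8 entries and in 18.8% of all promoters. No match of CTGGNAC overlapped one of ACAAAG in the members' entries. A match is a description and not a site. The letters did not follow the pairs throughout. Opalin's entry held them while its r was -0.303 with Cnp, -0.183 with Cldn11 and -0.064 with Mag, and the entry of Ugt8, which went with Mbp, held none. The promoters of Mag, Cnp and Cldn11 are shown as examples, each 5′ to 3′ on the strand of the gene with the match in capitals.
Mag, GRCr8 chr1:95290995-95291294, minus strand: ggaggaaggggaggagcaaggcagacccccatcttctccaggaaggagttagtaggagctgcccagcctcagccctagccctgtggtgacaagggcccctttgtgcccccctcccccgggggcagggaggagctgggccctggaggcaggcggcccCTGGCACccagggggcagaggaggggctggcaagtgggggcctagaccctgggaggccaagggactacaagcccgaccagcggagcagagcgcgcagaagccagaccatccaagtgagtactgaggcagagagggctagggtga
Cnp, GRCr8 chr10:86011254-86011553, plus strand: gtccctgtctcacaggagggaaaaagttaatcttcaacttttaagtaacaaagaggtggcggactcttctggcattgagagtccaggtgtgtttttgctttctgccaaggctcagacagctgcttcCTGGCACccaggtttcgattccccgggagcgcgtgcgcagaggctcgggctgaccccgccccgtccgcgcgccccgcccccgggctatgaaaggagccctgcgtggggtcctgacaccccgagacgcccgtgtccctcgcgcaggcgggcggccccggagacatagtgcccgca
Cldn11, GRCr8 chr2:114149490-114149789, minus strand: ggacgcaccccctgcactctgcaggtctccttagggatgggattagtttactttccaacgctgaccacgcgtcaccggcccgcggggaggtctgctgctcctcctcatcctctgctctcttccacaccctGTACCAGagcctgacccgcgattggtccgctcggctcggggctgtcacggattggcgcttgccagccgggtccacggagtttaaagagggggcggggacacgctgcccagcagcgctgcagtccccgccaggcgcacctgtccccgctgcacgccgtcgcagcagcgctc

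Other genes were ranked by likeness to the mean of the 9 over the 22 rats, among 9227 genes of at least 10 CPM, whose median r was -0.03. Among the highest were Stard5 (r = 0.818, rho = 0.755), Aif1 (r = 0.783, rho = 0.631), Zkscan5 (r = 0.767, rho = 0.723) and Enpp2 (r = 0.761, rho = 0.67). Cx3cr1 (r = 0.737, rho = 0.632), Dpy19l1 (r = 0.737, rho = 0.722) and Cpd (r = 0.732, rho = 0.639) followed. Aif1 and Cx3cr1 are on the microglial list. The lowest were Hmgcll1 (r = -0.792, rho = -0.778), AABR07057765.1 (r = -0.702, rho = -0.708), Hspa4l (r = -0.701, rho = -0.592) and Fkbp1b (r = -0.699, rho = -0.652). With group means subtracted the r of each of these genes kept its sign. By list, the median r was 0.46 over 19 other myelin genes, 0.515 over 15 lipid genes, 0.526 over 6 microglial genes and -0.391 over 7 neuronal genes. The mean level of the microglial list had r = 0.655 with the mean of the 9 and r = 0.746 with Mbp, group means subtracted (22 rats, rho = 0.606 and 0.771), and its part in the Mbp result was not tested.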

How the data were processed

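Raw read counts per gene were deposited by the authors for 22 libraries, 1 per rat, as whole numbers with no normalization. The submitters' processing notes name FastQC, TopHat2 2.0.13, Subread and edgeR, with the genome build Rnor_6.0, whereas the study's methods name another aligner. The paper's tables gave fragment size and RNA integrity, used only to class libraries or as a model term. Groups came from the sample titles. Counts of genes kept by filterByExpr (min.count 10) were scaled by TMM and tested with edgeR 4.0.16 in R 4.3.3 (glmQLFit, glmQLFTest) with only the groups compared in each fit. P values were adjusted by Benjamini-Hochberg over all genes tested, and a gene was called at an adjusted p under 0.1. Log2 CPM used a prior count of 2. The steps were tested on simulated data.

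The 9 members and the other lists were chosen with earlier results of these data known. Named were the 9 members, for each other list at most the 2 called genes of smallest adjusted p in each direction (or the gene of smallest p where none was called), Nefh, and the 8 genes most and 4 least like the members. Alternatives were RLE factors, no factors, DESeq2 1.42.0, other count filters (none, or 1 CPM), 1 fit of all rats, terms for RNA integrity, fragment class or rat number, the shorter class alone, and each rat left out. Terms for the most abundant gene, the Schwann cell list and the meninges list were added after seeing the data. Lhfpl3, Foxd3, Col1a2 and Pecam1 were not matched by symbol. Of the genes that the rule for named genes takes, 2 are not reported here.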

Additional observations from a re-analysis of the deposited data

How the results depend on the processing

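In GDX against intact males the number of central myelin genes called was 1, and it was 0 without scaling factors, with RNA integrity or fragment class as a term, and within the shorter class. It was 2 with DESeq2 and with all 22 rats in 1 fit (Mbp and Cnp). With a rat left out it was 0 to 1. With the share of the most abundant gene, the Schwann cell list or the meninges list as a term, all chosen after seeing the data, it was 0. The adjusted p of Mbp ran from 0.0189 (DESeq2) to 0.908 (meninges list). The shorter class and left-out rats leave fewer samples, and otherwise the cause was not tested. In the other 5 comparisons it was 0 under every alternative run.

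The median log2 fold change of the 9 moved in the interaction to -0.0611 without scaling factors, where the median of all genes was -0.05. Genes of the other lists that the rule for named genes takes were followed over all settings. They lost their call 78 times in GDX males, 42 times between intact rats and 11 times in OVX females (Kdr). They gained one 4 times in GDX males, 15 times in OVX females, 5 times between intact rats and 5 times between fragment classes. Between operated rats a call was gained 11 times, and in the interaction 17 times. Reversed were 2 in GDX males with the meninges list, Pdgfra at -0.0034 and Prx at -0.47.

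Rat numbers do not pair these samples, which are different animals: correlations of same-numbered rats ran from -0.113 to 0.063, and none was best with its own number. With the number as a replicate block, 2 members were called in GDX males (Mbp higher, Opalin lower), the median of the 9 was 0.0795, and 1274 genes were called.

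All genes called in GDX males numbered 1995, and 2084 with DESeq2, 2395 in 1 fit of all rats, 1262 with RNA integrity as a term, 796 with fragment class, 440 in the shorter class, 1157 with the most abundant gene, 294 with the Schwann cell list and 7 with the meninges list. Without scaling factors 37.5% of the called genes were higher, beside 50.7%. Leaving out a rat gave 1202 (GDX male 5) to 2446 (GDX male 1). In OVX females 5 became 2 without scaling factors, 164 with DESeq2, 11 without a filter or with RNA integrity, 9 in 1 fit of all rats, 3 with fragment class, 16 with the meninges list, 0 with the replicate block, and 0 to 113 (without intact female 1) with a rat left out. Between intact rats 599 became 352 without intact male 1, 255 with the replicate block, 34 in the shorter class, 19 with the Schwann cell list and 21 with the meninges list. Between operated rats 35 became 130 with DESeq2, 61 in 1 fit, 571 with the Schwann cell list and 154 with the meninges list. For the interaction 18 became 234 with DESeq2, 33 without a filter, 18 with RLE factors, 0 to 6 under the other settings, and 1 (without GDX male 5) to 275 (without GDX male 1) with a rat left out. Between fragment classes 1 became 53 with DESeq2, 210 without a filter and 9 with the Schwann cell list.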
